A study of Homo sapiens with 15 samples.

Results

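The miR-23a/27a/24-2 and miR-23b/27b/24-1 clusters are paralogous sets of 3 hairpins each, and their 9 mature miRNAs listed as hypoxia-responsive were followed through all libraries: hsa-miR-23a-3p, hsa-miR-23a-5p, hsa-miR-23b-3p, hsa-miR-24-3p, hsa-miR-24-2-5p, hsa-miR-27a-3p, hsa-miR-27a-5p, hsa-miR-27b-3p and hsa-miR-27b-5p. They were chosen by name, as 9 of the 1707 miRNAs listed, and all 9 were among the 562 miRNAs that passed the filter on low counts. miRNA-Seq was performed on U87-MG cells, an established human glioblastoma line, in 5 groups of 3 libraries. Control cells with intact HIF genes were cultured for 24 h in 21% O2 (normoxia) or in 1% O2 (hypoxia). Cells in which Cas9 and guide RNAs from a lentiviral vector had targeted HIF1α (HIF1α-KO), HIF2α (HIF2α-KO) or both genes (HIF1α/HIF2α-KO) were cultured for 24 h in 1% O2 only, so knockout and normoxia were never combined. The methods name no clones, and nothing in the labels says that the 3 replicates were separate cultures, so every p-value measures the spread between these libraries, which may be technical. HIF1α and HIF2α mRNAs are not measured by a miRNA library, so the knockouts could not be checked here on the targeted genes. The sources used here do not say whether control cells carried the vector, so vector and knockout cannot be told apart.

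Each cluster is transcribed as one long primary RNA that is cut into hairpins, and each hairpin yields a 5p and a 3p strand, of which one is usually kept as the guide in Argonaute. The seed, bases 2 to 8 from the 5′ end, is the part that pairs with target mRNAs, so miRNAs that share a seed share most predicted targets. miR-23 and miR-27 are studied in angiogenesis, lipid metabolism and glioma growth, miR-24 in the cell cycle and apoptosis, and members of both clusters are cited among the miRNAs that respond to hypoxia in tumour cells.

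The guide strands fall into 3 seed groups, and they are shown because the difference between paralogs decides which loci the counts can tell apart. The RefSeq mature sequences (GRCh38.p14) are written 5′ to 3′ with the seed in capitals.
miR-23a-3p: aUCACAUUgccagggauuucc
miR-23b-3p: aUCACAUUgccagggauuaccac
miR-27a-3p: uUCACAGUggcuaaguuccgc
miR-27b-3p: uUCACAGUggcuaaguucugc
miR-24-3p: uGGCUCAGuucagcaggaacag
With positions counted from 1 at the 5′ end and the a form given first, miR-23a-3p and miR-23b-3p differ only by U19A over the 21 bases they share, and miR-27a-3p and miR-27b-3p only by C19U over their 21 bases. miR-24-3p is the same 22 bases in MIR24-1 and MIR24-2.

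The 5p strands separate the loci better, which is why they are shown beside the guides. miR-27a-5p and miR-27b-5p differ at 8 of 22 positions, among them G3A inside the seed.
miR-23a-5p: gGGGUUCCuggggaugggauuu
miR-27a-5p: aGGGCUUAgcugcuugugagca
miR-27b-5p: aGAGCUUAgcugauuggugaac
miR-24-2-5p: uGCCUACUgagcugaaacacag

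In the hairpins of the miR-27 paralogs the mature strands are in capitals and the loop and flanks in lower case, which shows where the 5p and 3p strands are cut from.
MIR27A: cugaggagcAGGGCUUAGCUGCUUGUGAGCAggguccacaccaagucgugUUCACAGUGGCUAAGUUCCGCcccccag
MIR27B: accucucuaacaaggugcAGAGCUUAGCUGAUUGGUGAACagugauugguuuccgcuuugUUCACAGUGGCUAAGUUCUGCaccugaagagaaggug
The a cluster lies at chr19:13836287-13836659 (GRCh38.p14, minus strand), in the order MIR23A, MIR27A, MIR24-2 along the transcript, and spans 373 bases. In GENCODE v29 on GRCh38 all 3 of its hairpins overlap an exon of the noncoding gene AC020916.1, which lies on the same strand. The b cluster lies at chr9:95085208-95086088 (plus strand) and spans 881 bases inside the protein-coding gene C9orf3 on the same strand. MIR23B and MIR27B lie between its exons and MIR24-1 overlaps one of them. MIR3074 is annotated on the opposite strand across MIR24-1. miR-24-1-5p and miR-3074-5p were not analysed here.

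The libraries held 10360337 to 22496373 counts. The glioma-associated miR-21-5p made up 165043 to 255236 CPM (a count divided by the library total, in parts per 1000000), and the summed endothelial markers miR-126-3p and miR-126-5p stayed between 3.90 and 51.9 CPM. By miR-126 the libraries fell into 9 with more and 6 with less, the second set holding hypoxic control replicates 2 and 3, HIF1α-KO replicates 1 and 2, HIF2α-KO replicate 2 and HIF1α/HIF2α-KO replicate 3. The blood markers summed to 4.46 to 24.4 CPM, with the red-cell miRNA miR-451a at 2.08 to 18.7 CPM. Of the neuronal markers, miR-124-3p reached at most 0.579 CPM while miR-128-3p lay between 866 and 2213 CPM. The epithelial markers, of which 3 of 4 were listed, summed to at most 79.9 CPM, and the muscle markers to at most 47.2 CPM. The liver marker was not among the miRNAs listed, so it could not be assessed.

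None of the 9 miRNAs passed an adjusted p of 0.05 in any of the 7 comparisons of groups or in the interaction of the knockouts (edgeR quasi-likelihood test, Benjamini-Hochberg adjustment over 562 miRNAs). Their levels are given as TMM-normalized CPM, that is, CPM after edgeR's correction for library composition. The nearest to a difference was the miR-27 guide pair, which was highest in the hypoxic control cells and lower in each of the other groups. The miR-23 and miR-24 guides lay within a narrow band in all 15 libraries, and the 5p strands were far rarer and more scattered.

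miR-27a-3p had the highest listed counts of the members, only 1.003 to 1.02 times those of its near-identical paralog miR-27b-3p. It was listed with 0.962% to 1.38% of all counts in a library and the 14th highest mean CPM of the 1707 miRNAs. Its normalized CPM was 11165, 12019 and 11402 in the normoxic control libraries and 12367, 12970 and 13979 in the hypoxic control libraries. It was 11115, 10003 and 11626 in HIF1α-KO cells, 10969, 11874 and 10707 in HIF2α-KO cells, and 11171, 9299 and 11378 in HIF1α/HIF2α-KO cells. All 3 hypoxic control libraries thus lay above all 12 others, while the other 4 groups overlapped with their neighbours in the order of means. The difference from normoxia was 0.18 ± 0.10 (SE) on the log2 scale (95% interval -0.03 to 0.40, edgeR adjusted p = 0.724).

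Against hypoxic control cells, miR-27a-3p differed by -0.26 ± 0.10 (SE, log2) in HIF1α-KO cells (edgeR adjusted p = 0.287), by -0.23 ± 0.10 in HIF2α-KO cells (edgeR adjusted p = 0.316) and by -0.30 ± 0.10 in HIF1α/HIF2α-KO cells (edgeR adjusted p = 0.0742). The unadjusted p-values of the edgeR test were 0.0220, 0.0422 and 0.0102. Each was under 0.05 before, but not after, adjustment for the number of miRNAs tested. The 3 comparisons share the same control libraries. Among the libraries with less miR-126, the 2 hypoxic control libraries (12970 and 13979 normalized CPM) stood above the 4 knockout libraries (10003 to 11874). Among those with more miR-126, the remaining hypoxic control library (12367) was above the 3 normoxic libraries and the 5 knockout libraries. Quantile normalization, which the study names, keeps only the rank of a miRNA in each library, and miR-27a-3p ranked 13 to 17. On these values limma gave -0.0150 (log2) for hypoxia against normoxia. In the knockouts against hypoxic control cells it gave -0.12 without HIF1α, -0.0150 without HIF2α and 0.0394 without both, so the size of all 4 differences, and the direction of the first and the last, depend on the scaling.

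miR-27b-3p repeated these values almost library by library. Its normalized CPM was 11029 to 11900 in normoxia, 12297 to 13879 in hypoxic control cells, 9766 to 11541 in HIF1α-KO cells, 10634 to 11838 in HIF2α-KO cells and 9237 to 11289 in HIF1α/HIF2α-KO cells. The log2 differences were 0.19 ± 0.10 (SE) for hypoxia against normoxia, and -0.27 ± 0.10, -0.23 ± 0.10 and -0.30 ± 0.10 for the 3 knockouts against hypoxic control cells (edgeR adjusted p = 0.724, 0.287, 0.316 and 0.0785). Under quantile normalization these 4 were -0.0405, -0.20, -0.0405 and -0.09.

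The miR-27 pair cannot be read as 2 independent miRNAs. The ratio of the count of miR-27a-3p to that of miR-27b-3p was 1.003 to 1.02 in all 15 libraries, with an SD of 0.00776 on the log2 scale. The 5p strands of the same hairpins, which are not near-identical, had a ratio of 2.96 to 5.70, with an SD of 0.264. The ratio of miR-23a-3p to miR-23b-3p was 0.801 to 0.908, with an SD of 0.0550. Among the 226 miRNAs with a mean of at least 10 CPM and a RefSeq sequence, 13 pairs differed at a single base. For the 7 pairs that differ at position 16 or later, the SD of the log2 count ratio was under 0.1 in 6, including miR-100-5p and miR-99a-5p (ratio 1.01 to 1.02), and was 0.257 for miR-320b and miR-320c. For the 6 pairs that differ at positions 9 to 13, it was 0.184 to 0.514. How reads were assigned to near-identical miRNAs is not given in the sources used here, so the counts of the 3p paralogs are uncertain as measures of their own loci. This search for pairs was made after the ratios had been seen.

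**Figure D1:**
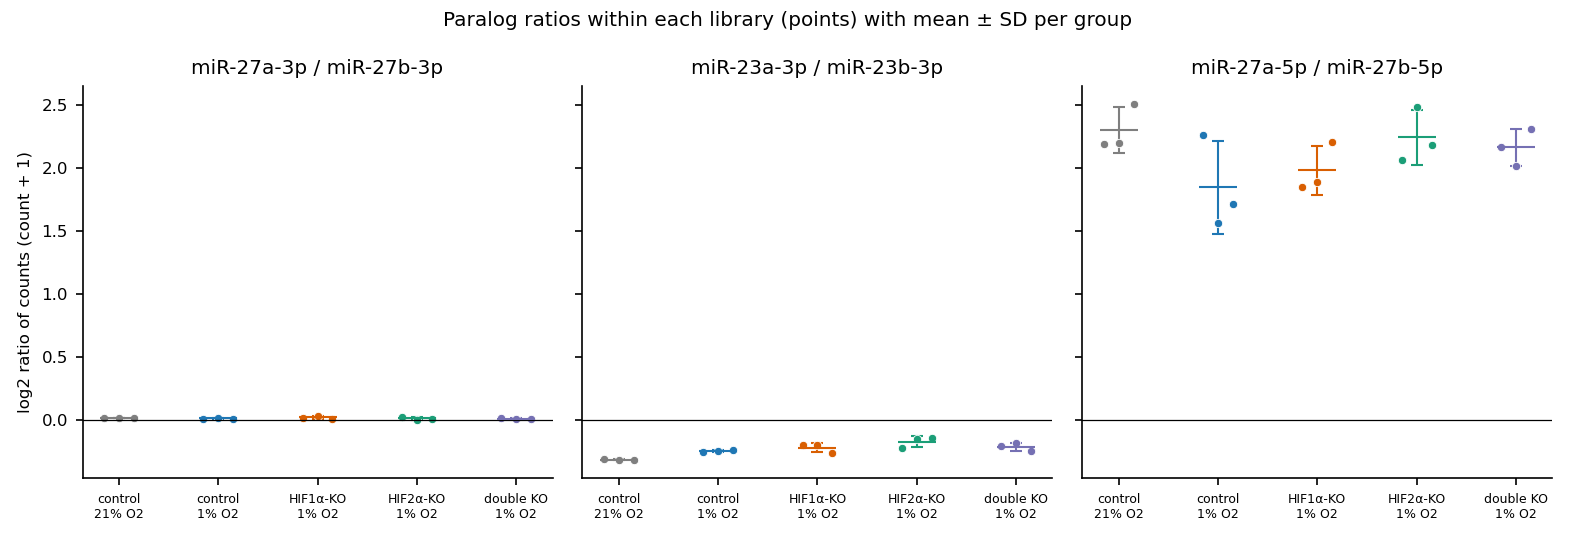
The log2 ratio of paired counts within each library (count + 1, vertical axis) in the 5 groups, with points for libraries and bars for the mean ± SD. The miR-27 guide ratio lies between 0.00432 and 0.0346 in all 15 libraries, the miR-23 guide ratio is lowest in the 3 normoxic libraries, and the miR-27 5p ratio lies between 1.56 and 2.51 with a wide scatter.

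Counts of a miRNA encoded by more than one hairpin were also uncertain in level. miR-199a-3p, encoded by 2 hairpins, was listed at exactly 2 times the count of the identical miR-199b-3p, encoded by 1, in all 15 libraries. miR-24-3p is likewise encoded by 2 hairpins, so the size of its ratio to another member is uncertain, and such ratios were compared only between groups.

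miR-23a-3p and miR-23b-3p, the guides that open each cluster, were the steadiest of the members. The normalized CPM of miR-23a-3p was 2136, 2239 and 2168 in normoxia, 2402, 2388 and 2252 in hypoxic control cells, 2355, 2137 and 2393 in HIF1α-KO cells, 2372, 2613 and 2736 in HIF2α-KO cells, and 2509, 2233 and 2431 in HIF1α/HIF2α-KO cells. The hypoxic control libraries lay just above the normoxic ones, and each group overlapped with its neighbours in the order of means. miR-23a-3p differed by 0.11 ± 0.09 (SE, log2) between hypoxia and normoxia (95% interval -0.09 to 0.31, edgeR adjusted p = 0.803). miR-23b-3p lay between 2450 and 3015 normalized CPM in all libraries and differed by 0.04 ± 0.09 (95% interval -0.17 to 0.24, edgeR adjusted p = 0.915). Against hypoxic control cells, the 95% intervals of both miRNAs in the 3 knockouts stayed between -0.26 and 0.33.

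The ratio between the miR-23 guides, which does not depend on the scaling, stood slightly lower in the 3 normoxic libraries than in every other. The ratio of miR-23a-3p to miR-23b-3p was 0.808, 0.801 and 0.803 in the normoxic libraries and 0.840, 0.843 and 0.848 in the hypoxic control libraries. All 12 hypoxic libraries, knockouts included, lay between 0.834 and 0.908, above the 3 normoxic ones. The difference between hypoxic and normoxic control cells was 0.07 on the log2 scale, against SDs of 0.00718 and 0.00634 within these groups. Each knockout group scattered more in this ratio, with SDs of 0.0306 to 0.0451 on the same scale. The two-sided exact permutation p was 0.1, the smallest that 3 against 3 libraries can give (adjusted over all planned ratio tests, 0.35). In HIF2α-KO cells the ratio was 0.856, 0.899 and 0.908, again above the hypoxic control libraries (exact permutation p = 0.1, adjusted 0.35). The counts of these near-identical guides are uncertain as measures of their own loci, and so is their ratio.

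The miR-27 to miR-23 ratio within a library is also free of the scaling and was lower in each knockout library than in each control library. The ratio of miR-27a-3p to miR-23a-3p was 5.23, 5.37 and 5.26 in normoxia, 5.15, 5.43 and 6.21 in hypoxic control cells, 4.72, 4.68 and 4.86 in HIF1α-KO cells, 4.62, 4.54 and 3.91 in HIF2α-KO cells, and 4.45, 4.16 and 4.68 in HIF1α/HIF2α-KO cells. All 9 knockout libraries (3.91 to 4.86) lay below all 6 control libraries (5.15 to 6.21), and normoxic and hypoxic control cells overlapped. For miR-27b-3p to miR-23b-3p, the knockout libraries lay between 3.53 and 4.07 and the control libraries between 4.17 and 5.23. Here the hypoxic control libraries (4.30, 4.52 and 5.23) lay above the normoxic ones (4.17, 4.26 and 4.18), a log2 difference of 0.15 (exact permutation p = 0.1). Each knockout differed from hypoxic control cells with an exact permutation p of 0.1, and for the a pair the differences were -0.23 (log2) in HIF1α-KO, -0.36 in HIF2α-KO and -0.33 in HIF1α/HIF2α-KO cells. Because the paralogs share near-identical sequences, the b pair is not separate evidence. Setting all knockout against all control libraries was not among the comparisons tested. An effect of the vector cannot be told apart from one of the knockout.

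**Figure D2:**
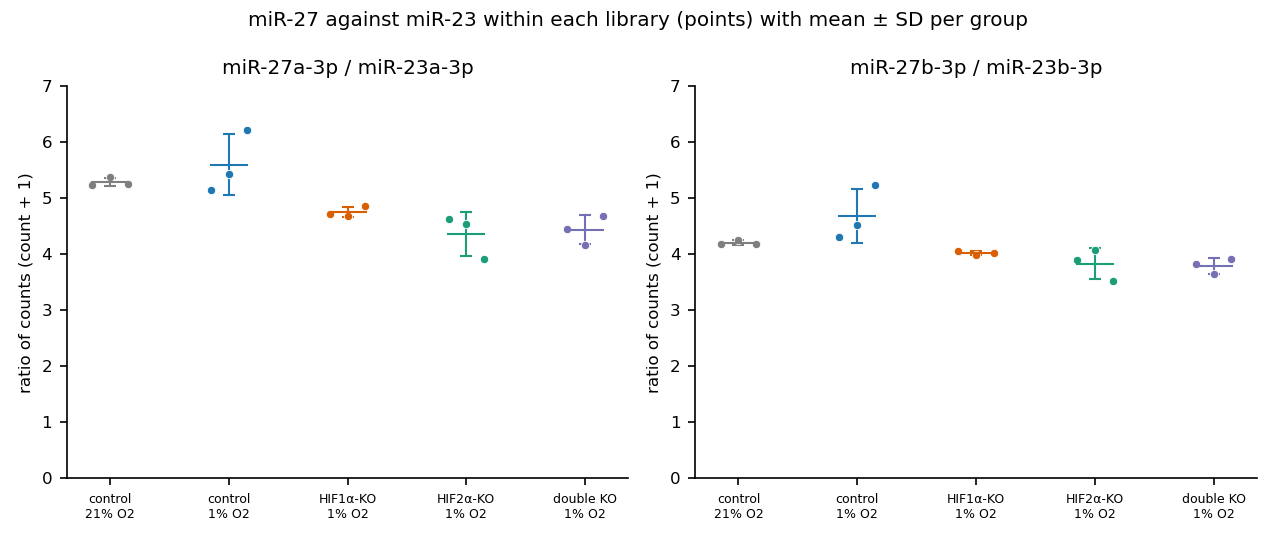
The ratio of counts (count + 1, vertical axis from 0) of the miR-27 guide to the miR-23 guide within each library for the a and the b cluster, with points for libraries and bars for the mean ± SD. The 9 knockout libraries lie below the 6 control libraries in both panels.

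Of the 63 tests of 9 planned ratios in 7 comparisons, 18 had groups that did not overlap, and all 18 reached only the smallest possible exact permutation p of 0.1 (adjusted over the 63 tests, 0.35). The ratios share members, so these tests are not independent. Of all 562 single miRNAs, 16.4% to 30.4% had groups that did not overlap, depending on the comparison. No such share was computed for ratios of other miRNAs, so the count of 18 cannot be read as particular to these clusters.

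miR-24-3p, the guide of MIR24-1 and MIR24-2, scattered most within the HIF2α-KO group. Its normalized CPM was 2423, 2734 and 2326 in normoxia, 2412, 2593 and 2232 in hypoxic control cells, 2233, 2396 and 2592 in HIF1α-KO cells, 2820, 2136 and 2041 in HIF2α-KO cells, and 2303, 2049 and 2119 in HIF1α/HIF2α-KO cells. The HIF2α-KO libraries held both the highest and the lowest value of the 15, and every neighbouring group overlapped. The difference between hypoxia and normoxia was -0.05 ± 0.13 (SE, log2; 95% interval -0.32 to 0.23, edgeR adjusted p = 0.922). Within a library, its ratio to miR-23a-3p was 0.872 to 0.918 in HIF1α/HIF2α-KO cells, below the 0.991 to 1.09 of hypoxic control cells (exact permutation p = 0.1).

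The 5p strands, which are less often kept as guides, were rare. miR-27a-5p reached 209 to 402 normalized CPM, miR-24-2-5p 44.7 to 84.5, miR-27b-5p 37.2 to 80.4 and miR-23a-5p only 2.19 to 3.86, with 23 to 57 counts in a library. The ratio of the count of miR-27a-5p to that of miR-27a-3p was 0.0165 to 0.0353.

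miR-27b-5p, which only the b cluster yields, was 71.7, 80.2 and 70.3 normalized CPM in hypoxic control cells. It was 51.4, 56.5 and 70.5 in normoxia, 68.4, 70.2 and 48.5 in HIF1α-KO cells, 60.3, 37.2 and 48.3 in HIF2α-KO cells, and 80.4, 55.8 and 47.0 in HIF1α/HIF2α-KO cells. The hypoxic control libraries did not overlap with the HIF2α-KO libraries nor, narrowly, with the HIF1α-KO libraries. The difference between HIF2α-KO and hypoxic control cells was -0.61 ± 0.23 (SE, log2; 95% interval -1.11 to -0.11), with an unadjusted p of 0.0206 and an edgeR adjusted p of 0.263. By its own analysis, the study lists miR-27b-5p as down in HIF2α-KO cells. Between hypoxia and normoxia miR-27b-5p differed by 0.32 ± 0.23 (edgeR adjusted p = 0.791), and its groups overlapped.

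miR-24-2-5p, which only the a cluster yields, was 76.4, 84.5 and 70.6 normalized CPM in HIF1α-KO cells and 66.1, 49.7 and 44.7 in HIF2α-KO cells. These groups did not overlap, and they differed by -0.53 ± 0.19 (SE, log2; 95% interval -0.95 to -0.11), with an unadjusted p of 0.0174 and an edgeR adjusted p of 0.182. In hypoxic control cells it was 52.0, 71.6 and 66.3, within the range of the other groups. Its difference between hypoxia and normoxia was -0.14 ± 0.19 (edgeR adjusted p = 0.841).

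miR-27a-5p scattered widely among replicates. Its normalized CPM was 234, 260 and 402 in normoxia, 345, 237 and 231 in hypoxic control cells, and 362, 226 and 233 in HIF1α/HIF2α-KO cells, so that 1 library of each group stood well above the other two. Its difference between hypoxia and normoxia was -0.14 ± 0.23 (SE, log2; edgeR adjusted p = 0.841). It was 0.14 without normoxic replicate 3. miR-23a-5p differed by 0.06 ± 0.21 (edgeR adjusted p = 0.997).

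Between hypoxic and normoxic control cells, 0 of 9 members passed the threshold, against 0% of the 562 miRNAs tested, and 0 of the 9 members had an unadjusted p under 0.05 against 35 of all 562 (DESeq2 also called 0 of 9 after adjustment). In this comparison 3 of 9 members had groups that did not overlap, against 17.8% of all tested. These were miR-23a-3p and both miR-27 guides, whose near-equal counts cannot be read as independent results. The median log2 difference of the 9 was 0.06 and that of all 562 was 0.01. The 95% intervals of the 9 members ran from -0.64 to 0.81 at the widest, so a change by 1 on the log2 scale in either direction lay outside all 9. miR-210-3p, widely used as a hypoxia-induced miRNA, did not rise in this comparison either (log2 difference -0.19, edgeR adjusted p = 0.841). The absence of calls therefore does not show that the members are unresponsive to hypoxia.

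In HIF1α-KO against control cells 0 of 9 members passed, against 1.25% of all tested, and 3 of 9 had groups that did not overlap, against 21.5%. In HIF2α-KO against control cells 0 of 9 passed, against 0%, and 3 of 9 did not overlap, against 16.4%. In HIF1α/HIF2α-KO against control cells 0 of 9 passed, against 5.87%, and 2 of 9 did not overlap, against 30.4%. At an unadjusted p under 0.05 there were 2, 3 and 2 members in these 3 comparisons, beside 67, 86 and 137 of all 562 miRNAs. The miR-27 guides made up 2 of the members each time, the remaining one being miR-27b-5p in HIF2α-KO cells, and all were lower than in control cells. The same guides were also 2 of the members without overlap in each of these comparisons. With near-equal counts they are not 2 independent results, so the shares of members count them doubly. The median log2 differences of the 9 members were -0.06, -0.23 and -0.01, where those of all 562 were -0.05, -0.01 and -0.02.

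Among the knockouts, 0 of 9 members passed in HIF2α-KO against HIF1α-KO cells (1.07% of all tested), with 2 of 9 not overlapping (20.5%). In HIF1α/HIF2α-KO against HIF1α-KO cells 0 of 9 passed (1.42%) and 0 of 9 did not overlap (21.4%). In HIF1α/HIF2α-KO against HIF2α-KO cells 0 of 9 passed (1.78%) and 1 of 9 did not overlap (20.5%). At an unadjusted p under 0.05 there were 1, 0 and 0 members, beside 98, 84 and 112 of all 562 miRNAs. The interaction, which asks whether loss of HIF1α acted differently with and without HIF2α, was passed by 0 of 9 members and 0% of all tested. With DESeq2 and with limma, 0 of 9 members passed in each of these comparisons.

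The reference for a HIF-dependent miRNA in the same libraries was miR-210-3p, the most widely used hypoxia-induced miRNA. Its normalized CPM was 1018 to 1308 in normoxia and 935 to 1153 in hypoxic control cells, a log2 difference of -0.19 ± 0.30 (SE; edgeR adjusted p = 0.841). It was 240 to 436 in HIF1α-KO cells, 1210 to 1996 in HIF2α-KO cells and 146 to 348 in HIF1α/HIF2α-KO cells. The log2 change of miR-210-3p was -1.76 in HIF1α-KO cells (edgeR adjusted p = 0.0126) and -2.21 in HIF1α/HIF2α-KO cells (edgeR adjusted p = 0.00402). Of 9 further miRNAs cited as hypoxia-responsive, a list that holds both strands of miR-210, 8 were tested. Between hypoxia and normoxia 0 of the 8 passed, and against hypoxic control cells 2 were lower in HIF1α-KO and 2 in HIF1α/HIF2α-KO cells, in each case miR-210-3p and miR-210-5p.

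**Figure D3:**
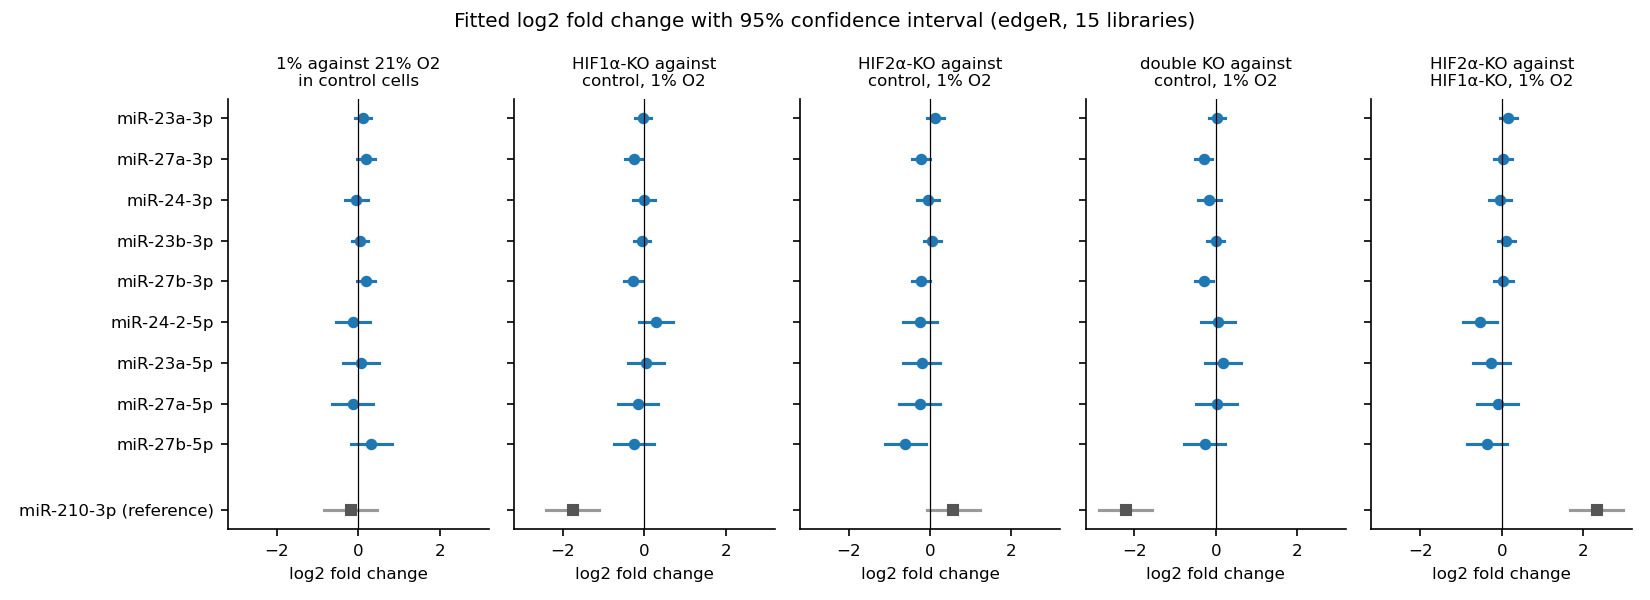
Fitted log2 fold change (horizontal axis) of the 9 members and of miR-210-3p as a reference in 5 comparisons, with lines for the 95% confidence interval. The members lie between -0.61 and 0.32, lowest for miR-27b-5p in HIF2α-KO cells and miR-24-2-5p in HIF2α-KO against HIF1α-KO cells, whereas miR-210-3p lies near -2 in HIF1α-KO and HIF1α/HIF2α-KO cells and above 2 in HIF2α-KO against HIF1α-KO cells.

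The guides varied little for their abundance. Over the 15 libraries the SD of log2 normalized CPM was 0.0805 for miR-23b-3p and 0.104 for miR-23a-3p. These were the lowest and the next lowest of the tested miRNAs that had an SD. Of the 562 miRNAs tested, those absent from some library had none. The SD was 0.142 for miR-27a-3p, 0.144 for miR-27b-3p and 0.145 for miR-24-3p. The 5 guides took places 1 to 5 among the 42 miRNAs with a mean of at least 1000 normalized CPM, for which the median SD was 0.216 and the highest 0.811. With total counts in place of TMM they took places 1 to 12, with miR-23b-3p again first, and with median-of-ratios factors places 1 to 5. Leaving out HIF2α-KO replicate 2 widened the places to 1 to 9, leaving out HIF1α/HIF2α-KO replicate 1 to 1 to 8, and leaving out its replicate 2 to 1 to 6. The 5p strands were unexceptional, with 65 to 190 of the 562 miRNAs at a lower SD. These values are descriptions with no test, and the near-identical pairs may not be independent, since how their reads were assigned is not given in the sources used here.

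**Figure D4:**
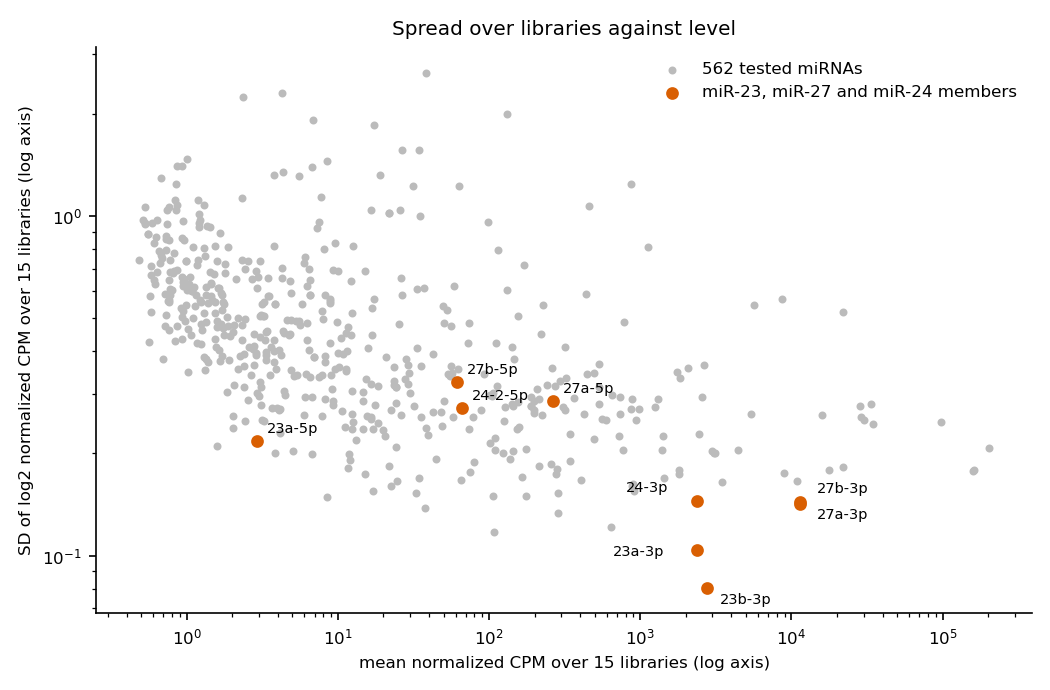
SD of log2 normalized CPM over 15 libraries (vertical log axis) against mean normalized CPM (horizontal log axis) for the tested miRNAs in grey and the 9 members in orange. Of the 562 tested miRNAs, those absent from some library have no SD and are not drawn. The 5 guide strands lie at the lower edge, and the 5p strands lie within the cloud.

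Among the miRNAs most like each guide over the 15 libraries, described by Pearson's r of log2 normalized CPM with no test, the paralog came first for miR-27 (r = 0.999, Spearman's rho = 0.996) and for miR-23 (r = 0.851, rho = 0.946). Next to miR-23a-3p were miR-16-5p (r = 0.740) and miR-664b-3p (r = 0.702), and next to miR-23b-3p were miR-193b-3p (r = 0.716) and miR-3609 (r = 0.707). For miR-27a-3p they were miR-4443 (r = 0.765) and miR-9985 (r = 0.729), which also followed miR-27b-3p (r = 0.759 and 0.735). For miR-24-3p they were miR-744-5p (r = 0.866), miR-1180-3p (r = 0.837) and miR-1306-3p (r = 0.792). Guides of one cluster were less alike. In the a cluster r was 0.109 for miR-23a-3p and miR-27a-3p, -0.325 for miR-23a-3p and miR-24-3p, and 0.280 for miR-27a-3p and miR-24-3p. In the b cluster r was 0.406 for miR-23b-3p and miR-27b-3p, -0.0202 for miR-23b-3p and miR-24-3p, and 0.250 for miR-27b-3p and miR-24-3p. The libraries share groups and scaling factors, which these values include. How reads were assigned to the near-identical paralogs is not given in the sources used here, and both clusters encode miR-24-3p. These correlations therefore cannot be assigned to single loci or clusters.

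Other miRNAs of the same loci or with the same seed were also low. miR-23b-5p, the passenger strand of MIR23B, reached 5.14 to 17.8 normalized CPM. Against hypoxic control cells it differed by -0.68 ± 0.31 (SE, log2) in HIF2α-KO cells, with overlap (unadjusted p = 0.0443, edgeR adjusted p = 0.316). In HIF1α/HIF2α-KO cells the difference was -0.53 ± 0.30, without overlap (edgeR adjusted p = 0.342). miR-23c, an X-linked miRNA with the miR-23 seed, reached 1.25 to 2.08. miR-3074-3p, from the strand opposite MIR24-1, was 8.78, 9.95 and 9.47 normalized CPM in normoxia and 15.6, 12.8 and 11.6 in hypoxic control cells. These 2 groups did not overlap, and the log2 difference was 0.50 ± 0.23 (SE, edgeR adjusted p = 0.724). In HIF2α-KO cells miR-3074-3p was 11.7, 6.28 and 7.12 normalized CPM, which differed by -0.80 ± 0.23 from the 14.7, 14.6 and 14.5 of HIF1α-KO cells, with no overlap (unadjusted p = 0.00445, edgeR adjusted p = 0.10), and by -0.66 ± 0.23 from hypoxic control cells (unadjusted p = 0.0138, edgeR adjusted p = 0.220). In none of the comparisons did any of these 3 miRNAs pass the threshold. By its own analysis, the study lists miR-3074-3p as down in HIF2α-KO cells.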

How the data were processed

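The authors deposited, for each of the 15 miRNA-Seq libraries, raw counts per mature miRNA without normalization. HISAT2, StringTie and DESeq2 are named in the submitters' processing notes without a role, and the genome build and counting rule are not given in the sources used here. The counts were fitted with edgeR 4.0.16 (R 4.3.3), with TMM normalization, filterByExpr (minimum count 10) and a quasi-likelihood test over all 15 libraries, one mean per group, with Benjamini-Hochberg adjustment over 562 miRNAs. Standard errors came from the fitted weights. Count ratios within a library (1 added to each count) were compared by two-sided exact permutation tests with scipy. The alternatives were DESeq2 1.42.0, limma 3.58.1 on quantile-normalized values, other scalings and filters, a replicate block, a miR-126 covariate and each library left out. Scripts were tested on simulated data. Of the listed miRNAs, 1545 matched a RefSeq sequence by name.

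The members, lists and tests were chosen with earlier results of these data known. The rule named the 9 members, the other miRNAs of their loci, miR-210-3p and the 3 most similar miRNAs of each guide. The ratio of the miR-27 5p strands, the search for near-identical pairs and the settings of the SD were added after the data were examined. Counts bound precision by counting error only.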

Additional observations from a re-analysis of the deposited data

How the results depend on the processing

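The count of members past the threshold was 0 in all 8 comparisons under every alternative, including each library left out in turn. With the replicate block the count was also 0 in each comparison. The numbers were taken to pair libraries only where all 3 same-numbered pairs correlated above 0.1, which no comparison met. The nearest was HIF2α-KO against control cells, with 0.502, 0.189 and 0.0952. Of 255 recomputed fold changes, 248 kept their direction and side of the threshold and 7 changed sign, none of them past the threshold. For hypoxia against normoxia, quantile normalization with limma gave -0.0150 (log2) for miR-27a-3p and -0.0405 for miR-27b-3p, and the miR-126 covariate gave 0.0172 for miR-24-3p. Leaving out 1 library gave -0.11 to 0.21 for miR-23a-5p (lowest without hypoxic control replicate 1), -0.11 to 0.00533 for miR-24-3p (highest without normoxic replicate 2) and -0.36 to 0.14 for miR-27a-5p (highest without normoxic replicate 3). For HIF1α/HIF2α-KO against control cells, quantile normalization gave 0.0394 for miR-27a-3p. The cause of these changes was not tested. Over the other alternatives the adjusted p of miR-27a-3p in HIF1α/HIF2α-KO cells ran from 0.0561 to 0.909. Total counts moved the median of all miRNAs by -0.14 (log2) in HIF2α-KO against control cells, -0.18 against HIF1α-KO cells, and 0.20 in HIF1α/HIF2α-KO against HIF2α-KO cells. The count of 18 ratio tests with groups that did not overlap stayed within 1.5 times that number in all 16 alternatives. Groups that do not overlap stay apart when a library is left out, so those alternatives could only keep or raise the count. Only the alternative that added 0.5 to each count could have lowered it. Depth limits miR-23a-5p most, with at most 57 counts.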
